A study of Triticum aestivum with 36 samples.

Results

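Developing seeds of the bread wheat (Triticum aestivum) varieties Sonalika and WH291 were compared at 28 days after anthesis (DAA), the late stage of the study. The comparison takes the 3 arrays labelled Sonalika at 28 DAA and the 3 labelled WH291 at 28 DAA, which are 6 of the 36 arrays of the series, and all 61179 probe sets that remain of 61290 once 111 control probe sets are set aside. Every difference is Sonalika minus WH291 in log2. The study profiled Sonalika, WH291, Lok1 and C306, all of them Indian, with 3 biological replicates for each of the stages 7, 14 and 28 DAA, to find genes of chapatti quality. Sonalika and WH291 belong to its group of poor chapatti makers, so the contrast separates genotypes inside that group and says nothing on quality. Plants stood in a field in 3 replications, main spikes were tagged on the day of anthesis, and RNA came from whole seeds, in which embryo, endosperm and seed coats are mixed. In such bulk tissue, fewer cells of a type and less RNA per cell cannot be told apart.

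Wheat flour takes its dough properties from the prolamins of the starchy endosperm. Glutenins link through disulphide bonds into large polymers, while gliadins are mostly single chains, and the avenin-like proteins are sulphur-rich relatives of both. The same endosperm cells fill with starch granules and with smaller proteins, among them serpins (inhibitors of serine proteinases), thionins, puroindolines and inhibitors of amylase and trypsin. Late in filling the endosperm dies, whereas the embryo and the aleurone gather late embryogenesis proteins and become tolerant of drying.

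The deposited values are log2 signals, centred for every probe set at its median over the 36 arrays. A value of 0 is therefore a probe set's middle level in the series, and values of different probe sets cannot be ranked against each other. Many wheat probe sets, above all those whose names end in x_at, s_at or a_at, match several related genes or homoeologous copies, so the values below belong to probe sets and only loosely to single genes. Where a gene has several, the plots of single probe sets carry the identifiers.

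The 3 Sonalika arrays did not lie equally far from WH291. Over all probe sets, replicates 1 and 3 of Sonalika correlated with the WH291 arrays at 0.4417 to 0.5005, while replicate 2 correlated with them at 0.6692 to 0.7364. Pairs of Sonalika arrays correlated at 0.7308 to 0.8276 and pairs of WH291 arrays at 0.8046 to 0.8858. These correlations are across probe sets that share the array and its normalization, and they are given as a description. Replicate 2 of Sonalika nevertheless carried the variety's own pattern. At the 326 probe sets where the arrays of the varieties were parted by a gap over 2 in log2 at 7 DAA, Sonalika replicates 1, 2 and 3 lay nearer the Sonalika side at 239, 240 and 255, against 117, 133 and 127 for WH291 replicates 1, 2 and 3.

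Another position came from C306, whose arrays take no part in the comparison. Over the 5378 probe sets that rose in C306 between 14 and 28 DAA, the median level was 0.43, 0.74 and 0.35 in Sonalika replicates 1, 2 and 3, and 0.80, 0.67 and 0.85 in WH291 replicates 1, 2 and 3. On this scale Sonalika replicates 1 and 3 lay below every WH291 array, and Sonalika replicate 2 lay among them. The label WH291 14 DAA is in doubt. At 90 probe sets with a gap in the same direction at 7 and 28 DAA, the arrays so labelled were nearer WH291 at 48 and nearer Sonalika at 42, whereas the Sonalika 14 DAA arrays were nearer Sonalika at 87. Those arrays entered only the estimate of the spread.

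**Figure D1:**
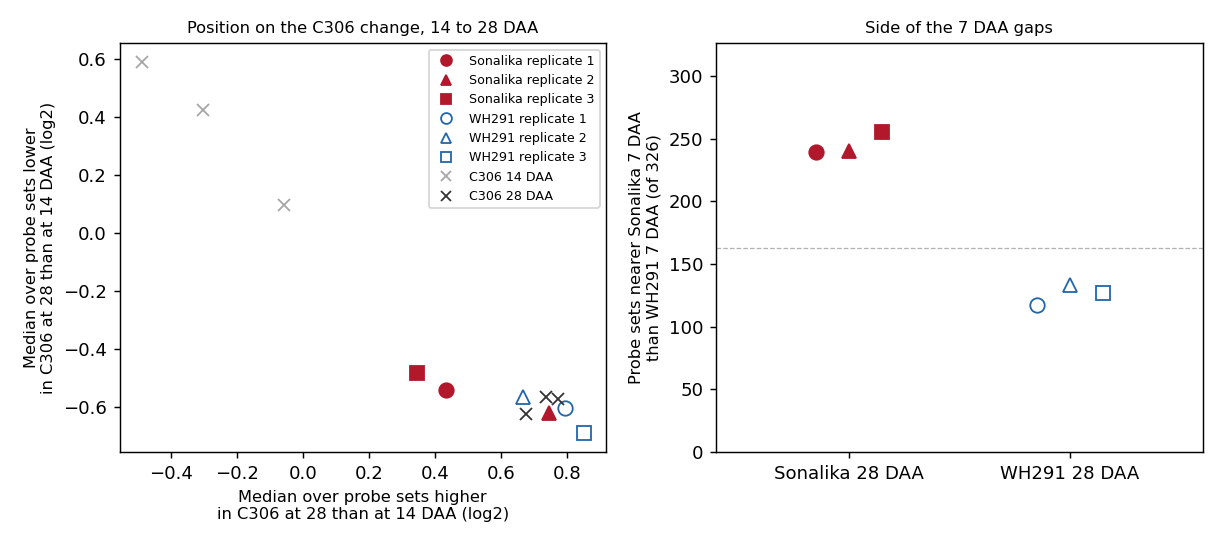
Position of each array of Sonalika and of WH291 at 28 DAA. The left plot gives the median log2 level over the probe sets higher (x axis) and lower (y axis) in C306 at 28 than at 14 DAA, with the C306 arrays as crosses, and the right plot the number of the 326 variety-separating probe sets at which an array lay nearer Sonalika, with a dashed line at an even split. Sonalika replicate 2 sits among the WH291 arrays on the left x axis, at 0.74, and with its own variety on the right, at 240.

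Between the varieties 4005 probe sets passed the test (limma moderated t over all 36 arrays, Benjamini-Hochberg adjusted p under 0.05), which is 6.55% of those tested. Sonalika was higher at 1984 (3.24%) and lower at 2021 (3.30%). The numbers were near equal, but the sizes were not. The median difference was 1.43 over the probe sets called higher and -0.91 over those called lower, against -0.04 over all probe sets, and 1421 of the higher calls but 809 of the lower calls reached a 2-fold difference. At 10-fold the call was 227 higher (0.371%) and 48 lower (0.0785%). The 3 Sonalika and 3 WH291 values did not overlap at 14067 probe sets (23.0%), of which 5361 were higher (8.76%) and 8706 lower (14.2%) in Sonalika. Of the 4005 calls, 3643 had arrays that did not overlap.

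These counts leaned on single arrays. Without Sonalika replicate 1 there were 970 higher and 887 lower calls, without Sonalika replicate 3 there were 1101 lower calls, without WH291 replicate 2 there were 1238 lower calls and without WH291 replicate 3 there were 1282 higher calls. Without Sonalika replicate 2 the 10-fold higher calls came to 342, and without Sonalika replicate 1 to 147. The 10-fold lower calls stayed between 40 and 55 whichever of the 6 arrays was left out. Sonalika replicate 2 was the Sonalika array nearest the WH291 mean at 1281 of the 1984 higher probe sets (64.6%) and at 1274 of the 2021 lower ones (63.0%), against 43.4% of all probe sets. At 10-fold it was nearest at 166 of the 227 higher (73.1%) but at 16 of the 48 lower (33.3%).

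Few of these probe sets could be named. A gene name from the array's annotation or from the study's annotation was at hand for 333 probe sets, of which 58 were higher and 12 lower in Sonalika. Over all probe sets 3.24% were higher and 3.30% lower. Of the 227 probe sets at least 10-fold higher, 47 had a name, and these were 23 glutenins, gliadins and avenin-like proteins, 6 serpins, 16 members of other lists and a remainder outside the lists. Of the 48 at least 10-fold lower, 4 had a name and none was in a list. The named part of the chip is rich in seed proteins, so these shares describe the names and not the whole set. Many names come from the study's list, picked for at least 10-fold differences between good and poor varieties in these same samples. The gene lists below draw on these names, so their direction is no independent evidence.

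The glutenins, gliadins and avenin-like proteins stood higher in Sonalika as a group. Of 61 such probe sets, 23 were called higher and 0 lower, against 3.24% and 3.30% of all probe sets. The arrays did not overlap at 52, all with Sonalika higher, against 8.76% of all. The median difference was 3.69, against -0.04 over all probe sets. The same shares of all probe sets stand beside the counts of the lists below. Over these 61 the median level was 0.92, 0.11 and 1.10 in Sonalika replicates 1, 2 and 3, and -3.86, -1.01 and -3.22 in WH291 replicates 1, 2 and 3. The WH291 arrays were widely spread, with WH291 replicate 2 highest of its variety at 57 of the 61 (93.4%, against 31.6% of all probe sets). Sonalika replicate 2 was in turn lowest of its variety at 57 of them (93.4%, against 32% of all). Between these replicates alone the median difference over the 61 was 1.08.

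How many of the 61 passed depended on the arrays at hand. The number called was 10 without Sonalika replicate 1, 10 without Sonalika replicate 3, 11 without WH291 replicate 1, 13 without WH291 replicate 3, and 37 without replicate 3 of Sonalika at 7 DAA, which enters only through the spread. Of the 29 storage protein probe sets that the study lists, 7 were called higher and 0 lower, with a median of 3.33. That list was picked on these same samples and is no independent evidence of direction.

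High-molecular-weight (HMW) glutenin subunits form the backbone of the gluten polymer. Of 6 probe sets 3 were higher and 0 lower in Sonalika, against 3.24% and 3.30% of all probe sets, with a median difference of 3.67. The y-type HMW glutenin probe set read 2.24, 2.14 and 2.29 in Sonalika replicates 1, 2 and 3, and -5.47, -0.98 and -3.22 in WH291 replicates 1, 2 and 3. The Sonalika arrays were tight, the WH291 arrays were widely spread, and the groups did not overlap (difference 5.45, SE 1.12, adjusted p = 0.00234). Another HMW glutenin probe set read 2.20, 0.73 and 2.45 in Sonalika and -6.31, -0.60 and -3.67 in WH291 (5.32, SE 1.28, adjusted p = 0.00926). In both, WH291 replicate 2 came closest to Sonalika. A probe set of a truncated subunit was higher by 3.65 (adjusted p = 0.035), but another of the same name missed the threshold (3.05, adjusted p = 0.124). Ax2* (3.69, adjusted p = 0.0589) and Dx5 (2.77, adjusted p = 0.168) missed it too.

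Low-molecular-weight (LMW) glutenin subunits, which extend and cap the polymer, gave fewer calls. Of 11 probe sets 1 was higher and 0 lower, against 3.24% and 3.30% of all probe sets. The arrays did not overlap at 10, with Sonalika higher, against 8.76% of all, and the median difference was 2.35. The member called, annotated as a partial LMW glutenin subunit, read 1.02, -0.28 and 1.48 in Sonalika and -4.07, -1.31 and -4.11 in WH291. The varieties did not overlap, but replicate 2 of each lay toward the other (3.90, SE 1.20, adjusted p = 0.0482). At 7 DAA, on other arrays, 5 of the 11 were higher in Sonalika, against 5.43% of all probe sets. The SD of the 11 in WH291 ran from 0.67 to 4.81 there.

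Gliadins gave the largest difference of all 61179 probe sets. The probe set at the top, a gamma-gliadin, read 2.51, 0.33 and 2.67 in Sonalika and -8.32, -7.68 and -8.30 in WH291. All 3 WH291 arrays sat far below all 3 Sonalika arrays, and here WH291 replicate 2 did not stand apart. The difference was 9.94 (SE 1.29, adjusted p = 5.19e-06), or 983-fold. At 7 DAA this probe set averaged -6.58 ± 3.15 in Sonalika and -8.20 ± 0.30 in WH291 (SD, n = 3 each). At 28 DAA it averaged 0.28 ± 0.49 in C306 and -3.87 ± 3.30 in Lok1 (SD, n = 3 each), so C306 lay near Sonalika and the Lok1 arrays were widely spread.

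Another gamma-gliadin probe set read 1.14, 0.34 and 1.29 in Sonalika and -6.96, -2.98 and -7.02 in WH291 (6.58, SE 1.29, adjusted p = 0.0014). The probe set of GAG56D, a gamma-gliadin gene, read 3.00, 0.91 and 3.09 in Sonalika and -4.75, -1.54 and -4.35 in WH291 (5.88, SE 1.32, adjusted p = 0.00538). In both, replicate 2 of each variety again leaned toward the other without crossing. Of 20 gamma- and omega-gliadin probe sets 10 were higher and 0 lower, with a median difference of 3.82 and a range of 0.44 to 9.94. The lowest 3, at 0.44, 0.62 and 1.01, are named gamma-gliadin by the study, but the platform annotation gives 2 of them as Glu-D3, an LMW glutenin locus, so which protein they measure is in doubt. The omega-gliadin member differed by 3.33 and missed the threshold (adjusted p = 0.148).

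Of 9 alpha-gliadin probe sets 4 were higher and 0 lower, the varieties were apart without overlap at all 9, and the median difference was 3.97. Over all probe sets 3.24% were called higher, and 8.76% were higher in Sonalika without overlap. The alpha-gliadin probe set with the largest difference among those called read 2.32, 0.37 and 2.11 in Sonalika and -4.88, -1.80 and -4.05 in WH291 (5.18, SE 1.11, adjusted p = 0.00343). Another alpha-gliadin had a smaller difference with a smaller error (3.85, SE 0.73, adjusted p = 0.000923). Its values were 1.38, 0.34 and 1.34 in Sonalika and -3.86, -1.25 and -3.39 in WH291.

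Of 15 avenin-like probe sets 5 were higher and 0 lower, with a median difference of 3.72. Avenin-like a6 read 1.44, -1.76 and 2.90 in Sonalika and -3.99, -4.12 and -6.05 in WH291. Here the spread lay in Sonalika, whose replicate 2 was far under the other arrays of the variety, but the groups stayed apart (5.58, SE 1.42, adjusted p = 0.0137). An avenin-like seed protein differed by 5.33 (adjusted p = 0.00708), and its values of 0.76, -0.86 and 1.37 in Sonalika and -5.27, -3.84 and -5.62 in WH291 did not overlap either.

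Globulin-type reserves went the same way. Triticin, the legumin-like globulin of wheat endosperm, read 0.90, 0.12 and 1.22 in Sonalika and -4.83, -2.11 and -3.66 in WH291 (4.28, SE 1.22, adjusted p = 0.0301). The 19 kDa globulin was higher on both its probe sets, by 4.21 (adjusted p = 0.0128) and 3.86 (adjusted p = 0.0208). The remaining member, globulin-1 S, is a vicilin-like reserve of embryo and aleurone and differed by -0.18 (adjusted p = 0.962), so 3 of 4 were higher and 0 lower.

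**Figure D2:**
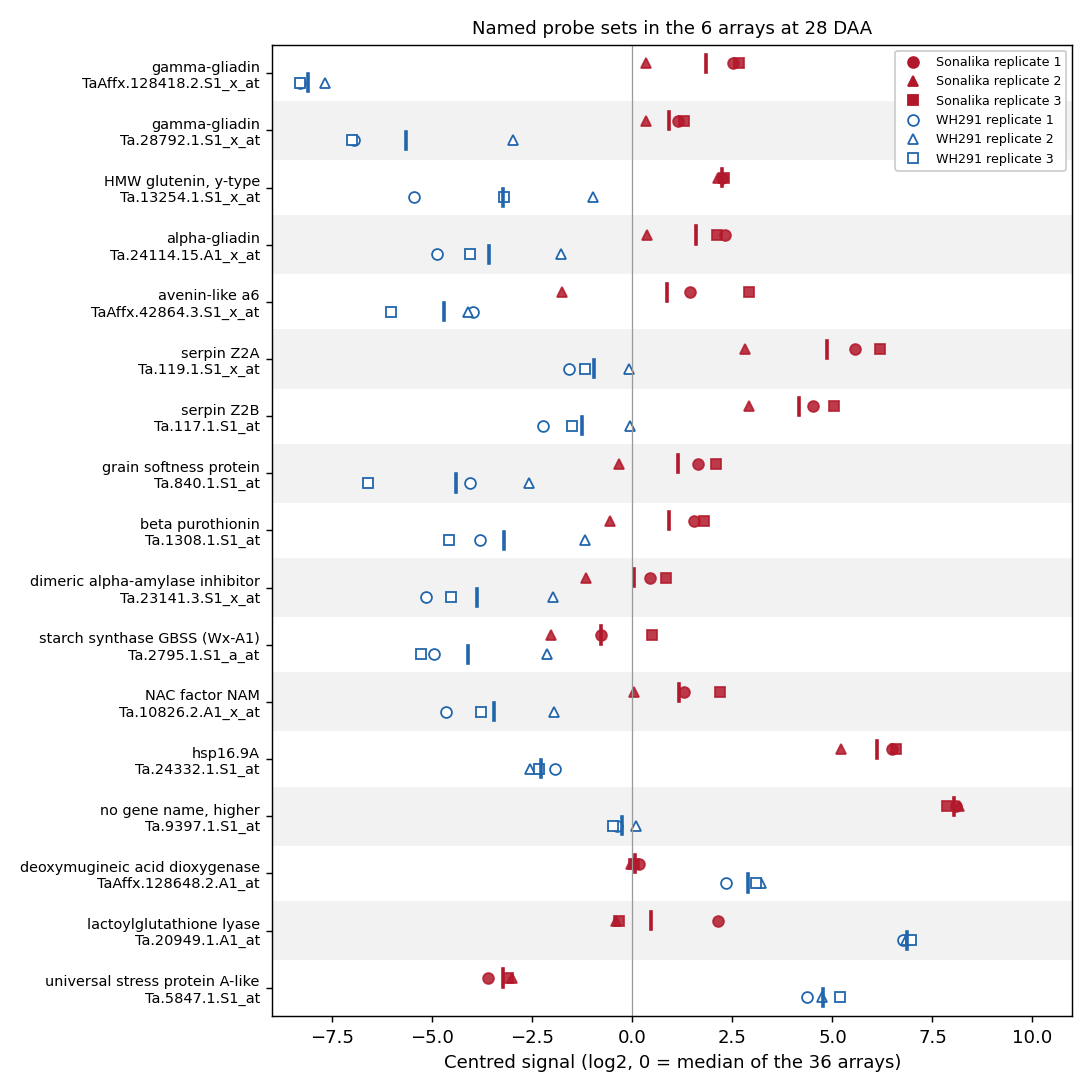
Log2 level of named probe sets on each array of Sonalika and of WH291 at 28 DAA. Each symbol is 1 array, vertical strokes are group means, and 0 is the median of that probe set over the 36 arrays of the series. The uppermost gamma-gliadin lies at 0.33 to 2.67 in Sonalika and -8.32 to -7.68 in WH291, and the universal stress protein runs the opposite way, at -3.61 to -3.02 in Sonalika and 4.36 to 5.18 in WH291.

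Among the lists of more than 1 probe set, the serpins were the one in which every member passed. All 6 probe sets were higher in Sonalika, by 4.26 to 5.81, with a median of 4.87. The median level over the 6 was 3.57, 2.18 and 3.23 in Sonalika replicates 1, 2 and 3, and -2.60, -0.86 and -2.01 in WH291 replicates 1, 2 and 3. Serpin-Z2A read 5.57, 2.81 and 6.18 in Sonalika and -1.58, -0.10 and -1.18 in WH291. Sonalika replicate 2 was well below its companions and still well above the highest WH291 array (5.81, SE 1.07, adjusted p = 0.000734). Serpin-Z2B read 4.52, 2.91 and 5.04 in Sonalika and -2.24, -0.07 and -1.50 in WH291 (5.43, SE 1.19, adjusted p = 0.00439). WSZ1b was higher by 5.36 (adjusted p = 0.00286), serpin 2 by 4.38 (adjusted p = 0.0031) and Serpin-Z1C by 4.33 (adjusted p = 0.0028). Between the replicates numbered 2 alone the median difference over the serpins was 2.94. All 6 passed whichever array of the comparison was left out, and 1 passed a test against a 2-fold difference.

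Thionins, small cysteine-rich antimicrobial peptides, showed 3 higher and 0 lower of 6 and a median of 3.39. Beta purothionin read 1.53, -0.56 and 1.78 in Sonalika and -3.82, -1.19 and -4.59 in WH291, with replicate 2 of each variety nearest the other (4.12, SE 1.16, adjusted p = 0.0277). Alpha-1 purothionin and type V thionin were both higher by 3.54 (adjusted p = 0.0204 and 0.0246). Between the replicates numbered 2 alone the median over the thionins was 0.53.

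Inhibitors of alpha-amylase and trypsin guard the grain against insect enzymes. Of 16 probe sets 2 were higher and 0 lower, against 3.24% and 3.30% of all probe sets. The arrays did not overlap at 3, with Sonalika higher, against 8.76% of all, and the median difference was 2.80. A dimeric alpha-amylase inhibitor read 0.43, -1.17 and 0.83 in Sonalika and -5.16, -1.98 and -4.53 in WH291 (3.92, SE 1.17, adjusted p = 0.0408). CM1 read 0.05, -2.03 and 0.90 in Sonalika and -4.68, -2.13 and -5.91 in WH291, so that the replicates numbered 2 nearly met (3.88, SE 1.19, adjusted p = 0.0473). Between these replicates alone the median over the list was -0.74, the opposite sign of the whole comparison.

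Of 5 Bowman-Birk and other trypsin inhibitors 2 were higher and 0 lower. One trypsin inhibitor passed with arrays that overlapped, since Sonalika replicate 2 at -0.74 lay below WH291 replicate 2 at -0.18 (3.53, SE 0.99, adjusted p = 0.0273). Puroindolines and grain softness proteins, which coat starch granules and go with kernel texture, gave 1 higher and 0 lower of 5. The 15 kDa grain softness protein read 1.63, -0.34 and 2.09 in Sonalika and -4.07, -2.58 and -6.62 in WH291, without overlap (5.55, SE 1.35, adjusted p = 0.0101). Puroindoline b (2.68, adjusted p = 0.216) and puroindoline a (1.48, adjusted p = 0.241) missed the threshold.

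Starch synthesis gave 2 higher and 0 lower of 5. Granule-bound starch synthase, the waxy enzyme that makes amylose, read -0.79, -2.04 and 0.48 in Sonalika and -4.95, -2.14 and -5.28 in WH291 on the Wx-A1 probe set. The groups did not overlap, but the replicates numbered 2 nearly met (3.34, SE 0.88, adjusted p = 0.0182). The probe set that the study names granule-bound starch synthase I shares the stem of its identifier with gliadin probe sets and overlapped between varieties, at 5.37, 4.28 and 6.77 in Sonalika and 2.43, 5.37 and 1.01 in WH291 (2.54, SE 0.68, adjusted p = 0.02). The small subunit of ADP-glucose pyrophosphorylase, AGP-S, differed by 1.60 (adjusted p = 0.149). None of 5 beta-amylase probe sets passed, against 6.55% of all probe sets, and the largest difference in that list was 2.82 (SE 1.26, adjusted p = 0.218).

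Among 8 probe sets of regulators 4 were higher and 0 lower. The NAC factor NAM read 1.29, 0.04 and 2.18 in Sonalika and -4.67, -1.96 and -3.78 in WH291, without overlap (4.64, SE 0.91, adjusted p = 0.00151). Probe sets named CUP-SHAPED COTYLEDON 2, a NAC factor known from organ boundaries in Arabidopsis, were higher by 4.41 (adjusted p = 0.00487) and 3.02 (adjusted p = 0.0318). The larger of these came from a probe set whose identifier shares its stem with that of NAM. The chromatin remodeller CHD4 read 4.68, 4.51 and 4.98 in Sonalika and 0.02, 4.15 and 4.22 in WH291, so WH291 replicate 1 lay far below the other WH291 arrays, which nearly reached Sonalika (1.93, SE 0.56, adjusted p = 0.0337). Heat stress factor HSFA9 (-0.36, adjusted p = 0.308) and GATA 17 (-0.10, adjusted p = 0.936) missed the threshold.

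Aspartic proteinase oryzasin-1, first known from rice, read 0.05, -1.59 and 0.71 in Sonalika and -4.65, -3.78 and -5.03 in WH291, without overlap (4.21, SE 1.18, adjusted p = 0.0272), and 1 of 4 proteases was higher and 0 lower. Peroxidase 1 was the member called among 9 peroxidase and peroxiredoxin probe sets, higher by 3.84 (SE 1.05, adjusted p = 0.0236). PR5, a thaumatin-like defence protein, was the member called among 6 chitinase, glucanase and related probe sets, with a difference of 0.84 (SE 0.23, adjusted p = 0.0246). It read 1.30, 0.32 and 0.02 in Sonalika and -0.44, -0.21 and -0.23 in WH291, so Sonalika replicate 1 lay apart. The PR5 call was lost under 8 of the alternative settings. None of 5 lipid transfer, 8 nuclear photosynthesis or 28 rbcL probe sets passed, and their medians were -0.45, 0.03 and 0.02. Over all probe sets 6.55% were called, so few or no calls in lists this small do not set them apart.

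The small heat shock protein hsp16.9A, a chaperone of the cytosol, separated the varieties cleanly. It read 6.49, 5.22 and 6.60 in Sonalika and -1.95, -2.57 and -2.35 in WH291. Every Sonalika array was far above every WH291 array (8.39, SE 1.52, adjusted p = 0.00061, 335-fold). Sonalika was higher at 7 DAA too, by 6.03 (adjusted p = 0.00811). At 28 DAA the level was 6.50 ± 0.44 in Lok1 and -2.18 ± 0.14 in C306 (SD, n = 3 each), so Lok1 shared the high level and C306 the low level.

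**Figure D3:**
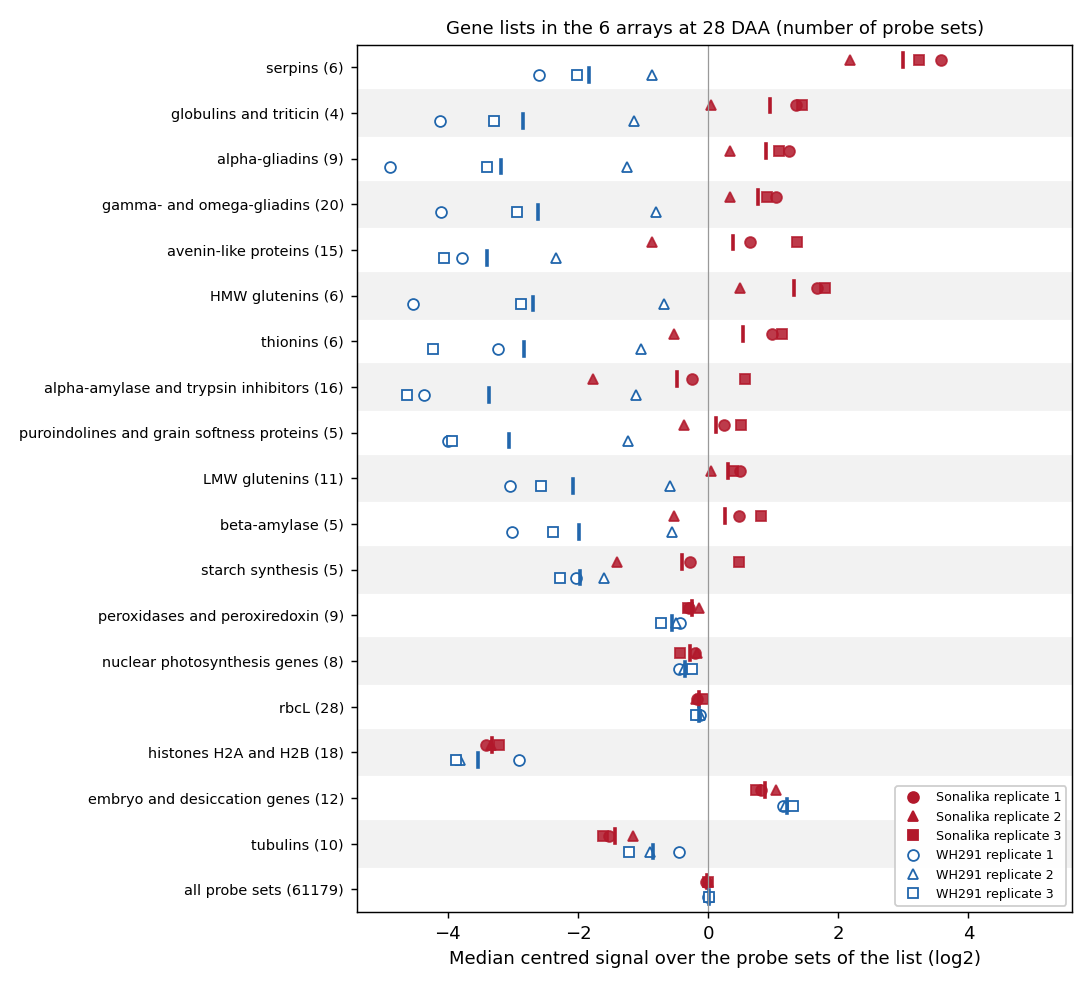
Median log2 level of each gene list on each array of Sonalika and of WH291 at 28 DAA, with the number of probe sets in brackets and vertical strokes for the mean of the 3 arrays. The serpins lie at 2.18 to 3.57 in Sonalika and -2.60 to -0.86 in WH291, and the embryo and desiccation genes at 0.74 to 1.05 in Sonalika and 1.15 to 1.30 in WH291.

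Markers of other parts of the seed were read beside these lists. Of 12 embryo and desiccation probe sets (Em, Rab15, LEA, oleosin and others) 0 were called in either direction, against 6.55% of all probe sets. The arrays did not overlap at 9 of the 12, all lower in Sonalika, against 14.2% of all probe sets, and the median difference was -0.47. The probe set with the largest difference, Em, read 2.01, 2.39 and 2.21 in Sonalika and 2.96, 2.85 and 3.08 in WH291 (-0.76, SE 1.13, adjusted p = 0.822). That SE rests on the spread in all 12 groups, while the SD at 28 DAA was 0.19 in Sonalika and 0.11 in WH291. The missing call is therefore no evidence that the varieties were equal. Em averaged -8.33 in Sonalika and -8.31 in WH291 at 7 DAA, so all 6 arrays at 28 DAA were far above the level of the early seed. With only the 6 arrays in the fit, 2 of the 12 were called. Of 18 histone H2A and H2B probe sets 0 were called, and their median level was -3.42, -3.33 and -3.22 in Sonalika and -2.91, -3.82 and -3.87 in WH291.

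Tubulins, the building blocks of microtubules, were the list with lower calls. Of 10 probe sets 4 were lower and 1 was higher in Sonalika. The lower calls were small, namely TUBA-2D, which read -1.57, -1.45 and -1.52 in Sonalika and -1.29, -0.59 and -0.84 in WH291 (-0.61, SE 0.14, adjusted p = 0.00857), and 3 probe sets of the beta-tubulin Tubb5 (-0.69, -0.70 and -0.94, adjusted p = 0.0482, 0.0327 and 0.0494), whose arrays overlapped. Another TUBA-2D probe set was the higher one, at 0.47, 0.63 and -0.14 in Sonalika and -0.36, -1.72 and -1.47 in WH291 (1.50, SE 0.33, adjusted p = 0.00474). The tubulin calls thus did not share a direction.

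Control probe sets moved with the groups as well. The 18S rRNA control read 0.64 to 1.27 in Sonalika and 1.87 to 2.05 in WH291. The 3' minus 5' difference of sucrose synthase was -1.78 to -0.02 in Sonalika and -3.57 to -2.24 in WH291. Its 5' probe set was nearly flat, at -0.04 to 0.12 in Sonalika and -0.16 to -0.04 in WH291. Its 3' probe set read -1.82 to 0.08 in Sonalika and -3.66 to -2.29 in WH291. Its middle probe set was lower in WH291 too, at -2.90 to -1.81, against -1.81 to 0.24 in Sonalika. The sucrose synthase difference thus followed the level of the 3' probe set, and its cause was not tested. The 3' minus 5' difference of actin, ef1a and gapdh was -0.25 to 0.38 in Sonalika and -0.59 to 0.66 in WH291. Actin and gapdh overlapped between the varieties, but ef1a did not. Its difference was 0.36, 0.38 and 0.10 in Sonalika replicates 1, 2 and 3, and -0.06, -0.25 and -0.06 in WH291 replicates 1, 2 and 3. Of the spikes, transcripts added during preparation, those for hybridisation overlapped, as bioB did at -3.88 to -2.30 in Sonalika and -3.84 to -2.69 in WH291 (3 probe sets). For the polyadenylated spikes dap, lys, phe and thr Sonalika lay below WH291 without overlap at 33 of their 36 probe sets, and their median was 0.11, 0.00 and -1.25 in Sonalika replicates 1, 2 and 3, and 2.68, 1.85 and 0.86 in WH291 replicates 1, 2 and 3. The part of these differences in the results was not tested.

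Probe sets lower in Sonalika were led by a universal stress protein A-like gene, of a family of small proteins that accumulate under stress in bacteria and plants. Its probe set read -3.61, -3.02 and -3.12 in Sonalika and 4.36, 4.74 and 5.18 in WH291. The arrays of each variety lay close together and the varieties far apart (-8.01, SE 0.93, adjusted p = 8.13e-07, 257-fold lower). A companion probe set of the same gene, which ends in x_at, read -2.79, -2.48 and -2.51 in Sonalika and 5.02, 5.25 and 5.56 in WH291 (-7.87, SE 0.95, adjusted p = 1.57e-06). C306 and Lok1 averaged 4.22 and 4.38 on the leading probe set at 28 DAA, near WH291, so Sonalika was the variety that differed.

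Lactoylglutathione lyase, the glyoxalase that detoxifies methylglyoxal, read 2.13, -0.42 and -0.33 in Sonalika and 6.77, 6.85 and 6.96 in WH291. The WH291 arrays lay close together, and all Sonalika arrays were far below them (-6.40, SE 0.35, adjusted p = 1.13e-13, 84.3-fold lower). Here WH291 was the variety that differed, since C306 averaged -0.08 and Lok1 0.07. The dioxygenase of deoxymugineic acid, whose barley relatives act on the iron-binding phytosiderophores, read 0.16, -0.05 and 0.05 in Sonalika and 2.34, 3.22 and 3.10 in WH291 (-2.83, SE 0.50, adjusted p = 0.000476). C306, at 3.70, lay with WH291, and Lok1, at -0.07, with Sonalika.

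The other named probe sets without overlap and lower in Sonalika were the chromatin protein Hmgb3 (-0.91, adjusted p = 0.011), a putative disease resistance protein (-0.79, adjusted p = 0.0475) and ATP-dependent phosphofructokinase of glycolysis (-0.61, adjusted p = 0.00984). SRG1, named after an Arabidopsis gene of senescence, was lower by -4.33 (SE 0.98, adjusted p = 0.0057), but its values overlapped, at -5.64, -6.13 and -1.19 in Sonalika and 0.34, 1.79 and -2.08 in WH291. Replicate 3 of each variety lay apart from the others of its variety, on the side toward the other variety.

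Probe sets with no name were as sharply parted. The largest rise among them, on a probe set whose identifier has the stem of gliadin probe sets, read 6.22, 5.69 and 6.34 in Sonalika and -3.91, -2.78 and -3.72 in WH291 (9.56, SE 0.93, adjusted p = 2.87e-08). The next largest rise read 8.08, 8.17 and 7.85 in Sonalika and -0.40, 0.08 and -0.48 in WH291 (8.30, SE 0.26, adjusted p = 2.3e-19), with C306 at -0.42 and Lok1 at 0.03, so its high level was that of Sonalika among the 4 varieties. In the other direction, the largest fall read 0.63, 0.48 and 0.23 in Sonalika and 7.12, 7.27 and 7.78 in WH291 (-6.94, SE 0.29, adjusted p = 1.94e-16). The next largest fall read 0.35, 0.02 and -0.21 in Sonalika and 6.25, 7.08 and 7.28 in WH291 (-6.81, SE 0.26, adjusted p = 1.95e-17). In these 4 probe sets the spread inside a variety was small beside the difference.

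The same varieties were set against each other at 7 DAA, on 6 other arrays, to see which differences were already present. At 7 DAA 7276 probe sets were called (11.9%), 3324 higher (5.43%) and 3952 lower (6.46%) in Sonalika. Of all probe sets, 794 (1.30%) were called in the same direction at both stages, 341 higher and 453 lower, and these were 19.8% of the calls at 28 DAA and 10.9% of the calls at 7 DAA. Opposite calls numbered 243 (0.397%), with 93 higher at 28 DAA and lower at 7 DAA and 150 the reverse. The change of the difference between the stages, tested in the same fit, was called at 4972 probe sets (8.13%), with 2228 (3.64%) where Sonalika stood relatively higher at 28 DAA and 2744 (4.49%) where it stood relatively lower. That count was 2701 without replicate 3 of Sonalika at 7 DAA, 3031 without replicate 1 of Sonalika at 28 DAA and 3255 without replicate 2 of WH291 at 7 DAA.

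Of the 227 probe sets at least 10-fold higher at 28 DAA, 68 were higher and 2 lower in Sonalika at 7 DAA, and the change was called at 118. Of the 48 at least 10-fold lower, 33 were lower and 0 higher at 7 DAA, and the change was called at 28. Over all probe sets 5.43% were higher and 6.46% lower at 7 DAA, and the change was called at 8.13%. The 28 DAA difference that picked these probe sets is itself part of the change. The counts of called changes are therefore partly built in and are given as a description.

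The gene lists were read at both stages, beside the 8.13% of all probe sets at which the change was called. Serpins had a median difference of 4.87 at 28 DAA and 0.40 at 7 DAA, where 0 of 6 were called, and the change was called at 3. Serpin-Z2A was at -2.71 in Sonalika and -2.97 in WH291 at 7 DAA (0.26, adjusted p = 0.942), a change of 5.54 (SE 1.51, adjusted p = 0.021). The glutenins, gliadins and avenin-like proteins had medians of 3.69 at 28 DAA and 1.91 at 7 DAA, with 7 higher and 0 lower at 7 DAA, and the change was called at 1, the gamma-gliadin with the largest difference at 28 DAA (8.32, SE 1.83, adjusted p = 0.00461).

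Inhibitors and thionins had more calls at 7 DAA than at 28 DAA. At 7 DAA 14 of 16 inhibitor probe sets were higher and 1 was lower, with a median of 4.14, and 5 of 6 thionins were higher, with a median of 4.85. Over all probe sets 5.43% were higher and 6.46% lower at 7 DAA. Most inhibitors were widely spread in WH291 at 7 DAA, where their SD ran from 0.64 to 4.40, against 0.32 to 2.34 in Sonalika (n = 3 each). The change between stages was called up at 1 and down at 1 of the inhibitors and at 0 of the thionins. Beta purothionin averaged -2.89 ± 1.77 in Sonalika and -7.63 ± 3.21 in WH291 at 7 DAA (SD, n = 3 each). The difference was 4.74 (adjusted p = 0.00608), and the change to 28 DAA of -0.62 (SE 1.64) missed the threshold. Among 5 puroindolines and grain softness proteins 3 were higher at 7 DAA. Members called at both stages included the 15 kDa grain softness protein (5.55 at 28 DAA and 4.53 at 7 DAA), oryzasin-1 (4.21 and 5.44) and the 27k protein (5.09 and 4.15). At 7 DAA the SD of the WH291 arrays was 2.79, 4.18 and 3.42 at these members.

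Lactoylglutathione lyase was lower in Sonalika at both stages, by -6.40 at 28 DAA and -5.42 at 7 DAA (adjusted p = 4.99e-12 at 7 DAA), and its change of -0.98 missed the threshold (adjusted p = 0.266). The universal stress protein was a late difference. It averaged -0.03 in Sonalika and -1.52 in WH291 at 7 DAA (1.48, adjusted p = 0.387), and the change was -9.49 (SE 1.32, adjusted p = 5.35e-05). The 2 unnamed probe sets with the largest falls were late as well. They differed by 0.22 and -0.05 at 7 DAA (adjusted p = 0.752 and 0.954), with changes of -7.17 and -6.76.

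**Figure D4:**
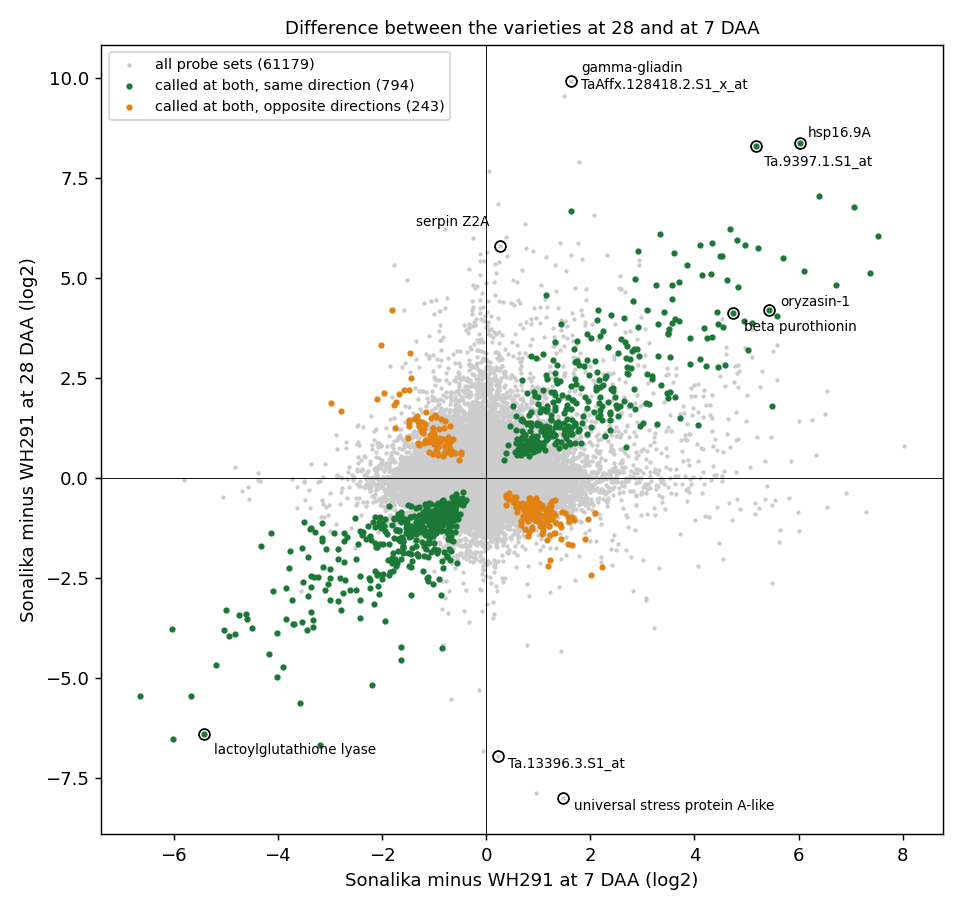
Sonalika minus WH291 difference in log2 at 28 DAA (y axis) against that at 7 DAA (x axis), each point being 1 of 61179 probe sets. Green points are the 794 called in the same direction at both stages, orange points the 243 called in opposite directions, and circles mark named probe sets. Serpin Z2A sits high at 28 DAA (5.81) and near 0 at 7 DAA (0.26), lactoylglutathione lyase lies low at both (-6.40 and -5.42), and the universal stress protein is low at 28 DAA only (-8.01, against 1.48 at 7 DAA).

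The 28 DAA arrays of C306 and Lok1, which take no part in the difference, show which variety was apart. Of the 227 probe sets at least 10-fold higher in Sonalika, C306 and Lok1 were both nearer Sonalika at 19, both nearer WH291 at 84, and split at the rest, with C306 alone nearer Sonalika at 103 and Lok1 alone at 21. Of the 48 at least 10-fold lower, both were nearer Sonalika at 12, both nearer WH291 at 15, and C306 alone was nearer Sonalika at 9 and Lok1 alone at 12. Over the 61 glutenin, gliadin and avenin-like probe sets the median of the group means was 0.67 in Sonalika, 0.10 in C306, -2.09 in Lok1 and -2.78 in WH291, and over the 6 serpins it was 3.00 in Sonalika, 0.09 in C306, -1.40 in Lok1 and -1.82 in WH291. The Lok1 arrays were widely spread at these genes, with an SD of 2.45 at Serpin-Z2A and 3.24 at Serpin-Z2B, against 0.11 and 0.08 in C306 (n = 3 each), so the order of Lok1 and WH291 lay within the spread.

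**Figure D5:**
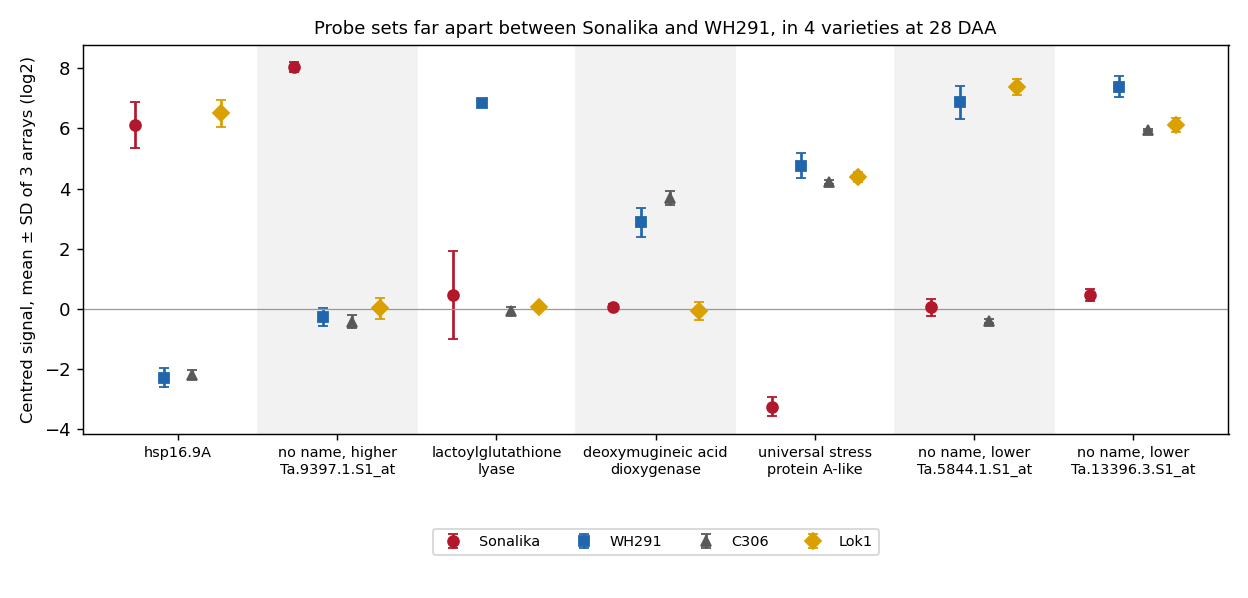
Log2 level at 28 DAA of selected probe sets in Sonalika, WH291, C306 and Lok1, as mean and SD of 3 arrays each. For hsp16.9A Lok1 (6.50) joins Sonalika and C306 (-2.18) joins WH291, while for the universal stress protein C306 (4.22) and Lok1 (4.38) join WH291.

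The differences were finally set beside seed development in C306. Between 14 and 28 DAA 8.79% of all probe sets rose and 8.43% fell in C306. Of the 1984 probe sets higher in Sonalika than in WH291 at 28 DAA, 208 (10.5%) rose and 311 (15.7%) fell in C306, and of the 2021 lower in Sonalika 517 (25.6%) rose and 129 (6.38%) fell. The balance among the 227 at least 10-fold higher ran the other way, with 31 (13.7%) that rose and 10 (4.41%) that fell in C306, and of the 48 at least 10-fold lower 11 (22.9%) rose and 2 (4.17%) fell. These shares were not tested against those of the whole chip. Over all 61179 probe sets the difference correlated with the C306 change at -0.16 (Pearson) and -0.19 (Spearman), across probe sets that are not independent. The part of a difference in developmental pace was not tested.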

How the data were processed

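RNA of 36 samples of developing wheat seed was hybridised to Affymetrix Wheat Genome Arrays, 3 biological replicates for each of 12 groups of variety and stage. The deposited values are log2 signals that the authors made by RMA normalization in GeneSpring, and a check found each probe set's median to be 0 across all 36 arrays. Cell intensities were not used here, so depth and background of a probe set are unknown, and the number of arrays limits the precision. No pair of arrays was a duplicate, since at most 0.162% of their values were equal.

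A model of the 12 groups was fitted to all 36 arrays with limma 3.58.1 in R 4.3.3, without a filter, after 111 control probe sets had been left out. Moderated t statistics gave Sonalika minus WH291 at 28 DAA, at 7 DAA and the change between them, adjusted with the Benjamini-Hochberg method over 61179 probe sets at 0.05. The study's methods state a two-way ANOVA of quality and stage and no test for a pair of varieties. The fit was tested on simulated data. An exact test of 3 against 3 arrays cannot go below 0.1. Python 3.11.15 (matplotlib 3.10.9, pandas 2.3.3, numpy 2.4.6) served for tables and plots.

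Gene names came from the platform annotation (1 symbol for 1273 probe sets) and from the study's annotation of 236 probe sets. The 25 gene lists were built from these names and hold 224 probe sets. Members and lists were chosen with earlier results of these data known, so lists are given by counts and medians. Named are the 12 largest rises and up to 12 largest falls among named probe sets past the test without overlap (8 falls met this), the 2 largest each way among the unnamed, up to 4 members of each list, and the 6 largest among those called at both stages and among those with a called change. List members given beside these were added after their values had been seen.

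Alternatives were the study's filter, fewer arrays, other normalizations, a replicate block, array weights, robust moderation, a stricter threshold, a test against a 2-fold change and each array left out. Whether the replicate numbers paired the samples could not be decided, and the main fit took the arrays as unpaired. Columns of every array could be matched to a sample. No sequences are shown, as none were used here.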

Additional observations from a re-analysis of the deposited data

Results flagged for a closer look

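At 14 of the probe sets described above the Sonalika minus WH291 difference changed between 28 and 7 DAA by the interaction test of the limma fit (adjusted p under 0.05), and these are the results marked for a second look. Some of them had been picked for their called change itself. Others had been picked for their difference at 28 DAA, which is part of the change. That they passed is therefore partly built in. Relative to WH291, Sonalika gained at 28 DAA at the gamma-gliadin with the largest difference (8.32), at the 2 unnamed probe sets with the largest rises (8.06 and 3.12), and at Serpin-Z2A (5.54), Serpin-Z2B (5.55) and WSZ1b (5.19). It lost at the TUBA-2D probe set that was higher (-2.23) and at the one that was lower (-0.68), at phosphofructokinase (-0.72), at SRG1 (-5.76), at the 2 unnamed probe sets with the largest falls (-7.17 and -6.76), and at both universal stress protein probe sets (-9.49 and, on the one ending in x_at, -8.84). At SRG1 the 28 DAA arrays of the varieties overlapped. Groups of 3 arrays are too small for a test of single outlying arrays.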

How the results depend on the processing

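With only the 6 arrays in the fit, 806 probe sets were higher and 1129 lower in Sonalika. Quantile normalization gave 1263 lower, 1519 with a called change between stages and 353 called in the same direction at both stages. Array weights gave 3296 higher, 3836 lower, 8880 changed and 1374 in the same direction. At an adjusted p of 0.01 there were 1037 higher, 889 lower, 2027 changed and 447 in the same direction. A test against a 2-fold difference gave 224 higher, 128 lower, 126 at least 10-fold higher, 156 changed and 127 in the same direction. Without replicate 2 of both varieties, an alternative chosen after seeing the data, 415 were at least 10-fold higher, 2123 higher and 1807 lower. The causes of these shifts were not tested, apart from the stricter criteria.

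Leaving out each of the 6 arrays in turn gave 970 to 2526 higher, 887 to 2557 lower, 147 to 342 at least 10-fold higher and 40 to 55 at least 10-fold lower. The median of the study's storage proteins ran from 2.48 to 4.06. Leaving out each of the 12 arrays of both stages gave 2701 to 6675 with a called change and 573 to 905 in the same direction. A replicate block, with 1961 higher, 2013 lower, 225 and 48 at 10-fold, 4898 changed, 798 in the same direction and a storage median of 3.33, left the counts within 1.5 times. The deviations of same-numbered arrays correlated at 0.14, -0.25 and -0.14, and those of other pairs at -0.17 to 0.33. With 3 arrays per group these values cannot decide whether the replicate numbers paired the samples.

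Of 59 probe sets described above that passed the test, 23 passed under each of 23 alternatives that gave them a value, and 14 passed also at an adjusted p of 0.01 and against a 2-fold difference. None turned its direction under these 25. Without Sonalika replicate 1, 32 were lost, without Sonalika replicate 2, 0. The study's filter left 60048 probe sets and removed 3 of the 59. All 6 serpins were called under each of these alternatives except that filter, which left 4 of them, and the test against a 2-fold difference, which left 1. Of the 61 glutenins, gliadins and avenin-like proteins that test left 4, an adjusted p of 0.01 left 12 and a fit on the 12 arrays of both stages left 14. Depth cannot be read from log2 values.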
